A study of Homo sapiens with 4 samples.

Results

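The genes of the collagen family and of the enzymes that modify and cross-link collagen were followed in KGN cells after knockdown of YAP and TAZ. The set was chosen by gene symbol: every COL gene named as a chain (COL, a number, A, a number), together with P4HA1 to P4HA3, PLOD1 to PLOD3, LOX, LOXL1 to LOXL4 and SERPINH1. It held 55 genes of the 19775 measured, 43 collagen chains and 12 modifying genes, read by 135 probe sets, and each gene was represented by its probe set with the highest mean intensity. KGN is an established human cell line that came from a granulosa cell tumour. Cells were cultured in serum-containing medium and transfected with a control siRNA at 10 nM (siNC) or with a YAP siRNA plus a TAZ siRNA, 5 nM of each (siYT); YAP and TAZ are the co-activators that the Hippo pathway holds back. The medium was replaced 48 h later by medium that held 8Br-cAMP (a cyclic AMP analogue that enters cells) at 0.5 mM or none, for 24 h, and the cells of all 4 groups were transfected; groups with 8Br-cAMP are written siNC+8Br-cAMP and siYT+8Br-cAMP. Each group held 1 array, so no difference below has a replicate check, and differences are sizes without p-values, apart from the additive fit described near the end.

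Collagen chains assemble in the endoplasmic reticulum into triple helices of 3 chains. Prolyl 4-hydroxylases (the P4HA subunits with P4HB) hydroxylate proline and so stabilise the helix, the lysyl hydroxylases PLOD1 to PLOD3 hydroxylate lysine, and the chaperone SERPINH1 (HSP47) binds the folded procollagen. After secretion the lysyl oxidases oxidise lysine and hydroxylysine and start the cross-links between molecules. Fibrillar collagens form the stroma of the ovary, and type IV collagen forms the basal lamina on which granulosa cells rest.

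Knockdown was seen at the transcript level: YAP1 was 3.80-fold and 3.38-fold lower and WWTR1, the gene of TAZ, 5.22-fold and 6.11-fold lower, without and with 8Br-cAMP. Intensities below 62.6, the median of all values, were set to that floor, and a difference counted as higher or lower at 2-fold. Of the granulosa markers, FOXL2, CYP19A1, INHA, GATA4, WT1 and KRT18 were above the floor on all 4 arrays, while FSHR, AMHR2 and NR5A1 were below it on all 4. After knockdown KRT18 was 4.82-fold and 6.89-fold lower and CYP19A1, the aromatase gene, 39.2-fold and 3.78-fold higher, without and with 8Br-cAMP. Both epithelial markers (EPCAM and CDH1) were below the floor on every array. Of the endothelial markers CDH5 was below it throughout and PECAM1 was above it on 3 arrays (43.5, 169, 381 and 156). Of the leukocyte markers PTPRC was above it on 1 array and CD14 on 2, and of the theca markers CYP17A1 on none and INSL3 on all 4. The 5 stromal markers (PDGFRA, THY1, DCN, FAP and TCF21) were above it on all arrays, and their summed intensity was 2951 and 3002 on the siNC and siNC+8Br-cAMP arrays, 7127 on the siYT array and 3841 on the siYT+8Br-cAMP array. That sum is over different probe sets and follows PDGFRA most (553, 548, 3493 and 687); DCN and FAP were also higher in siYT, while THY1 (1910, 1877, 1678 and 1806) and TCF21 (82.6, 101, 107 and 91.2) differed little. The part of these markers in the differences below was not tested, and in a bulk sample more cells of a type and more RNA per cell cannot be told apart. The siYT+8Br-cAMP array stood apart. Its 3' to 5' intensity ratio was 1.35 by the ACTB control, where the other 3 arrays gave 1.07 to 1.14, and 1.13 by the GAPDH control, where they gave 0.888 to 0.962. A yardstick of error was taken from genes with several probe sets over 4 times the floor on every array. These probe sets scattered around their gene's mean log2 difference with an SD of 0.39 and 0.37 in the comparisons without the siYT+8Br-cAMP array. In those that use it the SD was 0.54 and 0.53. That SD covers neither dimmer probe sets, which many members had, nor variation between cultures.

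Of the 55 genes, 35 were above the floor on all 4 arrays, 10 on 1 to 3 arrays and 10 on none. The 10 below the floor throughout were COL2A1, COL6A5, COL6A6, COL9A1, COL19A1, COL20A1, COL23A1, COL24A1, COL26A1 and COL28A1, with no intensity over 62.2. The probe sets with the highest mean intensity among the members read COL4A1, LOX, COL1A1, COL3A1, PLOD2, COL4A2, COL1A2 and LOXL1. Intensities of different probe sets set no gene's level against another's. COL3A1, a fibrillar chain, read 25948, 27311, 24436 and 26953 in the order siNC, siNC+8Br-cAMP, siYT, siYT+8Br-cAMP, so the 4 arrays lay close together. LOX, the founding lysyl oxidase, read 32065, 25544, 25290 and 27965 in the same order, with siNC the highest. Other LOX probe sets were highest on other arrays: siYT+8Br-cAMP on one (20947, 22259, 18671 and 29919) and siNC+8Br-cAMP on the other (3043, 3410, 2346 and 3134).

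**Figure D1:**
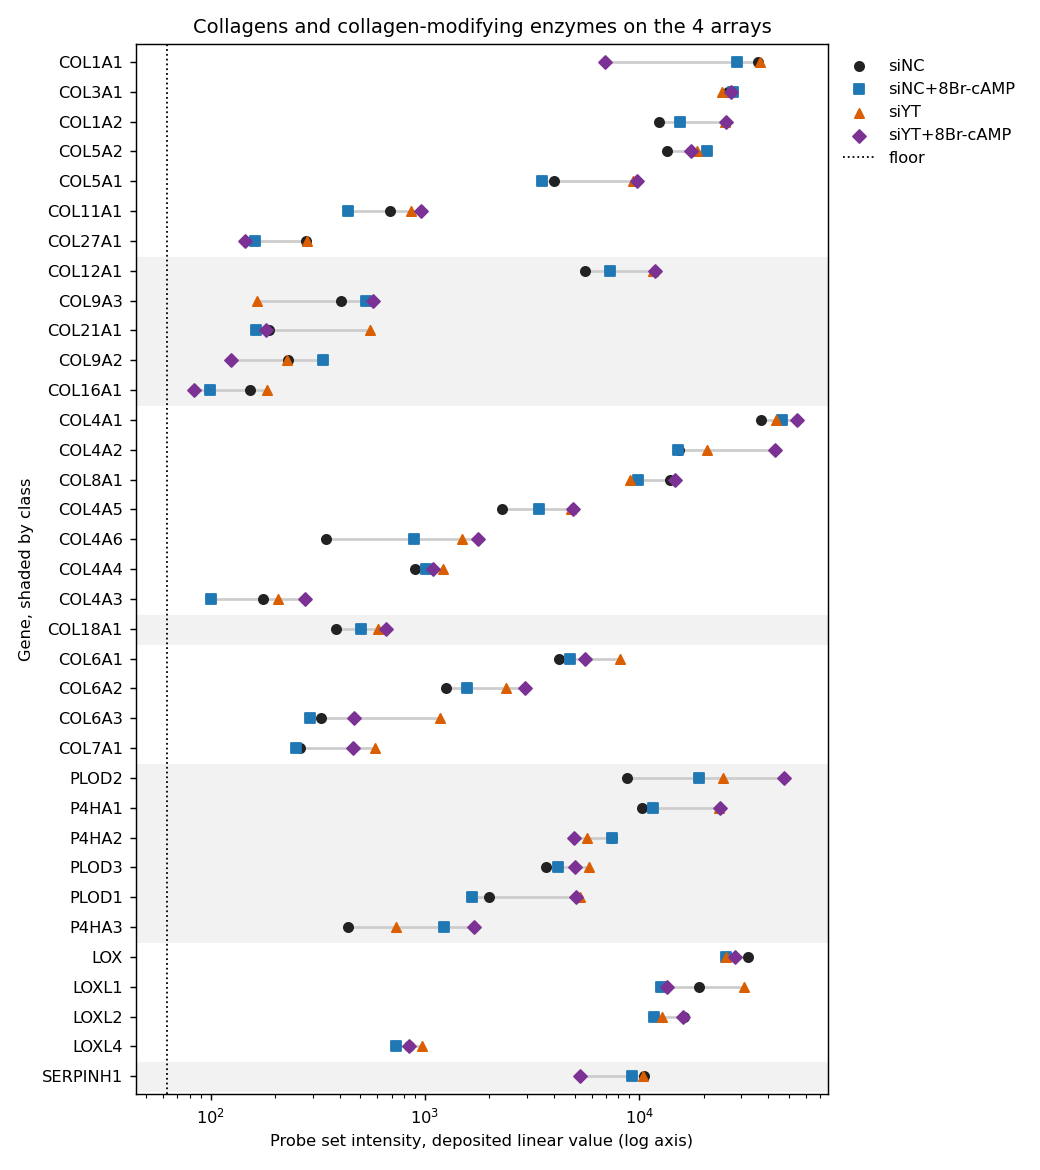
Deposited intensity (log axis) of the 35 collagen and collagen-modifying genes above the floor on all 4 arrays, 1 symbol per array, grouped by class in shaded bands, with the floor of 62.6 dotted. PLOD1, P4HA1 and COL5A1 show both siYT arrays to the right of both siNC arrays, and COL1A1 shows the siYT+8Br-cAMP array at 6926, left of the other 3.

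Knockdown was compared with control siRNA in cells without 8Br-cAMP and, on other arrays, in cells given it, to see which members moved when YAP and TAZ were reduced. In both, 4 members were at least 2-fold higher, and 3 of them were hydroxylases: PLOD1, PLOD2, P4HA1 and the fibrillar chain COL5A1. None was 2-fold lower in both. With the mean of all probe sets of a gene in place of its representative, PLOD1 and PLOD2 remained past 2-fold in both, while COL5A1 differed by log2 0.65 and 0.85. P4HA1 then also lay under 2-fold, by construction, since its only other probe set was below the floor on every array and adds a difference of 0. Over the 14361 genes with at least 1 array above the floor, 2.45% were 2-fold higher in both and 2.87% lower in both, and over the 10791 genes above it on all 4 arrays 2.75% and 3.21%. Without 8Br-cAMP, 15 of the 45 members with at least 1 array above the floor were 2-fold higher and 1, COL9A3, was lower, where all genes gave 7.40% and 6.16%. In the presence of 8Br-cAMP the counts were 7 higher and 3 lower (COL1A1, COL9A2 and COL15A1), where all genes gave 6.88% and 9.66%. Some of these members passed the floor only on the array where they were high. Among the 35 above it on all arrays, 11 were higher and 1 lower in the first comparison, against 7.83% and 6.85% of the 10791 such genes, and in the second 7 higher and 2 lower, against 7.14% and 10.6%. The log2 medians of these 35 in the 2 comparisons were 0.47 and 0.39, beside 0.03 and -0.03 over the 10791 genes. By any amount, 23 of the 35 (65.7%) were higher in both comparisons and 4 were lower in both, where all such genes gave 33.7% and 33.8%.

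**Figure D2:**
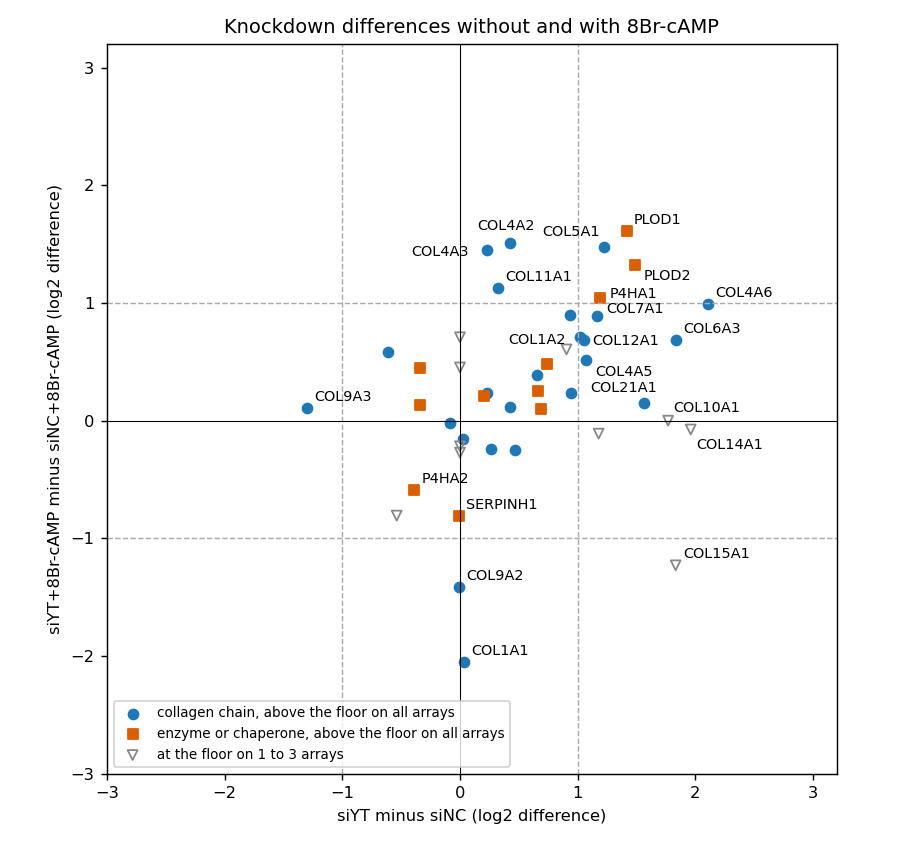
Log2 difference after knockdown without 8Br-cAMP (horizontal) and with it (vertical) for the 45 members above the floor on at least 1 array, with dashed lines at 2-fold and open triangles for members at the floor on 1 to 3 arrays. PLOD1, PLOD2, P4HA1 and COL5A1 lie past 2-fold on both axes, and COL1A1 lies near 0 on the horizontal axis and at -2.05 on the vertical one.

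The 2 lysyl hydroxylases among the 4 genes were higher on each knockdown array than on each control array. The choice of the 4 genes as 2-fold higher in both comparisons favours this order. PLOD1, which hydroxylates lysine within the helix, read 1991 and 1663 on the siNC and siNC+8Br-cAMP arrays, and 5309 and 5076 on the siYT and siYT+8Br-cAMP arrays. That is 2.67-fold and 3.05-fold higher, and the siRNA groups did not overlap. PLOD2, which hydroxylates the telopeptide lysines used in stable cross-links, read 8793, 18944, 24621 and 47312 in the order siNC, siNC+8Br-cAMP, siYT, siYT+8Br-cAMP. A second PLOD2 probe set read 9340, 13759, 27605 and 24198, and on both probe sets the knockdown arrays lay above the control arrays. Knockdown differences were 2.80-fold and 2.50-fold on the first and 2.96-fold and 1.76-fold on the second. PLOD3, which also transfers sugars to hydroxylysine, read 3689, 4200, 5847 and 5010, which is 1.59-fold and 1.19-fold higher.

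Among the prolyl 4-hydroxylase subunits, P4HA1 alone, the main catalytic subunit of most cells, passed 2-fold in both comparisons. P4HA1 read 10287 and 11631 on the control arrays and 23528 and 23914 on the knockdown arrays. The siRNA groups did not overlap, which the choice of this gene favours, and the arrays with and without 8Br-cAMP lay close together. The differences were 2.29-fold and 2.06-fold higher. P4HB, the partner subunit shared by all P4HA forms and also a disulphide isomerase, gave 2.04-fold and 1.98-fold, just inside and just outside the threshold. P4HA2 read 7478, 7505, 5706 and 4982, which is 1.31-fold and 1.51-fold lower, and a second probe set gave 1.55-fold and 2.64-fold lower. P4HA3 read 440 and 732 without 8Br-cAMP and 1222 and 1702 with it, a knockdown difference of 1.67-fold and 1.39-fold. SERPINH1 read 10522, 9264, 10444 and 5269, so that only the siYT+8Br-cAMP array was low, and the part of that array's higher 3' to 5' ratio in this value was not tested.

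The promoters of the 4 genes that were higher in both comparisons are shown because these genes were higher together. Sequences are the 250 bases before the start, 5′ to 3′ on the gene's strand, from RefSeq (GRCh38.p14). Capitals mark the letters of motifs searched on both strands: GGAATG (bound by TEAD factors, the DNA-binding partners of YAP and TAZ), ACGTG (the core of hypoxia response elements), TGACGTCA (the cyclic AMP response element) and CCAAT. No matches of different motifs overlap in the windows shown.
PLOD1 (chr1:11934467-11934716, plus strand): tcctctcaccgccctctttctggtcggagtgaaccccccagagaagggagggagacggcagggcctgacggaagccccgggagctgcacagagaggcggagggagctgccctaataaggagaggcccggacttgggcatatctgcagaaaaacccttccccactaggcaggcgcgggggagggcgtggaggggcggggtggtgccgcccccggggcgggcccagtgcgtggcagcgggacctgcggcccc
PLOD2 (chr3:146161185-146161434, minus strand): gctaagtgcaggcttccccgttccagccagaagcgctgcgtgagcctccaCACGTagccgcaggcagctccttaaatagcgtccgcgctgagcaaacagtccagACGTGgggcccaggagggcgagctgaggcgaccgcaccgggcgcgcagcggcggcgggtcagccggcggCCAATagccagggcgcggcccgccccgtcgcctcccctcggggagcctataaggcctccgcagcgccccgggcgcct
P4HA1 (chr10:73096867-73097116, minus strand): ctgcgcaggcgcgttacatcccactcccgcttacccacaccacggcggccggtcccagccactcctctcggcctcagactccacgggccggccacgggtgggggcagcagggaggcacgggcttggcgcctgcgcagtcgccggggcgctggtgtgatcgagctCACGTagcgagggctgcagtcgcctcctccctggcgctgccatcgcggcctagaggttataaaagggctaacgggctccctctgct
COL5A1 (chr9:134641553-134641802, plus strand): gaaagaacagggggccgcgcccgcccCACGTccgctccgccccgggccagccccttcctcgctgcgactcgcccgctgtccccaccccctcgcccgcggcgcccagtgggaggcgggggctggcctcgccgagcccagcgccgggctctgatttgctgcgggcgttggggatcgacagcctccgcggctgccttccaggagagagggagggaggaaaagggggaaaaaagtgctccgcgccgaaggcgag
The PLOD2 window held ACGTG 200 and 146 bases before the start and CCAAT 77 bases before it, the P4HA1 and COL5A1 windows held ACGTG once each, and the PLOD1 window held none of the 4 motifs. Neither GGAATG nor TGACGTCA was in any of these windows. Of 35116 windows of this length from all genes, 18.5% held ACGTG, 32.0% CCAAT, 11.9% GGAATG and 1.65% TGACGTCA on either strand. RefSeq windows were matched for 41 of the 55 members, with 57 windows in all, of which 22.8% held ACGTG, 26.3% CCAAT, 7.02% GGAATG and 0 TGACGTCA. A match is only a run of letters, and its absence says only that these letters are not in this window.

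Fibrillar chains were mixed. Of the 7 above the floor on all arrays, 2 were 2-fold higher without 8Br-cAMP (COL1A2 and COL5A1) and 2 with it (COL5A1 and COL11A1), while COL1A1 was 2-fold lower with it. COL5A1, a chain of the collagen V that nucleates fibrils, read 4014, 3523, 9370 and 9777 in the same order of arrays. On its representative probe set both knockdown arrays were above both control arrays. The other COL5A1 probe sets gave smaller or opposite values: 1.78-fold and 1.53-fold higher on one (1077, 1246, 1919 and 1904), and log2 -0.12 and 0.46 on the other (3253, 1446, 2998 and 1988). COL5A2, the chain that joins COL5A1 in collagen V, differed by 0.47 and -0.25 on its representative and by 0.74 and 1.01 on its second probe set. COL11A1, a minor fibrillar chain related to COL5A1, read 688, 437, 863 and 954, which is 1.25-fold and 2.18-fold higher, where a dimmer probe set gave log2 -0.18 and 0.68.

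The chains of collagen I, the main fibril of most stroma, parted on 1 array. COL1A1 read 35932 and 28686 on the control arrays, without and with 8Br-cAMP, and 36702 and 6926 on the knockdown arrays. On this probe set the siYT+8Br-cAMP array was 4.14-fold below its siNC+8Br-cAMP counterpart and 5.30-fold below siYT. All 4 well measured COL1A1 probe sets (over 4 times the floor on every array) were lower there, by 2.03-fold to 5.61-fold against siNC+8Br-cAMP and by 2.14-fold to 6.06-fold against siYT. Under control siRNA the same 4 COL1A1 probe sets were lower with 8Br-cAMP by smaller amounts, log2 -0.32 to -1.06. COL1A2, the second chain, read 12317, 15441, 25009 and 25321, and was 2.03-fold and 1.64-fold higher after knockdown. Its other probe set read 16933, 16733, 15754 and 15558, with all 4 arrays level. A dimmer probe set read 209, 213, 763 and 467, which is 3.65-fold and 2.19-fold higher, so the COL1A2 probe sets disagree. One of 3 well measured COL3A1 probe sets was also low on the siYT+8Br-cAMP array (4373, 4022, 4157 and 1866), while the other two differed from siNC+8Br-cAMP by 1.13-fold or less. A dimmer COL3A1 probe set was low there too (255, 301, 284 and 81.5). This array had the 3' to 5' ratios of 1.35 and 1.13 given above, and their part in the COL1A1 value was not tested.

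**Figure D3:**
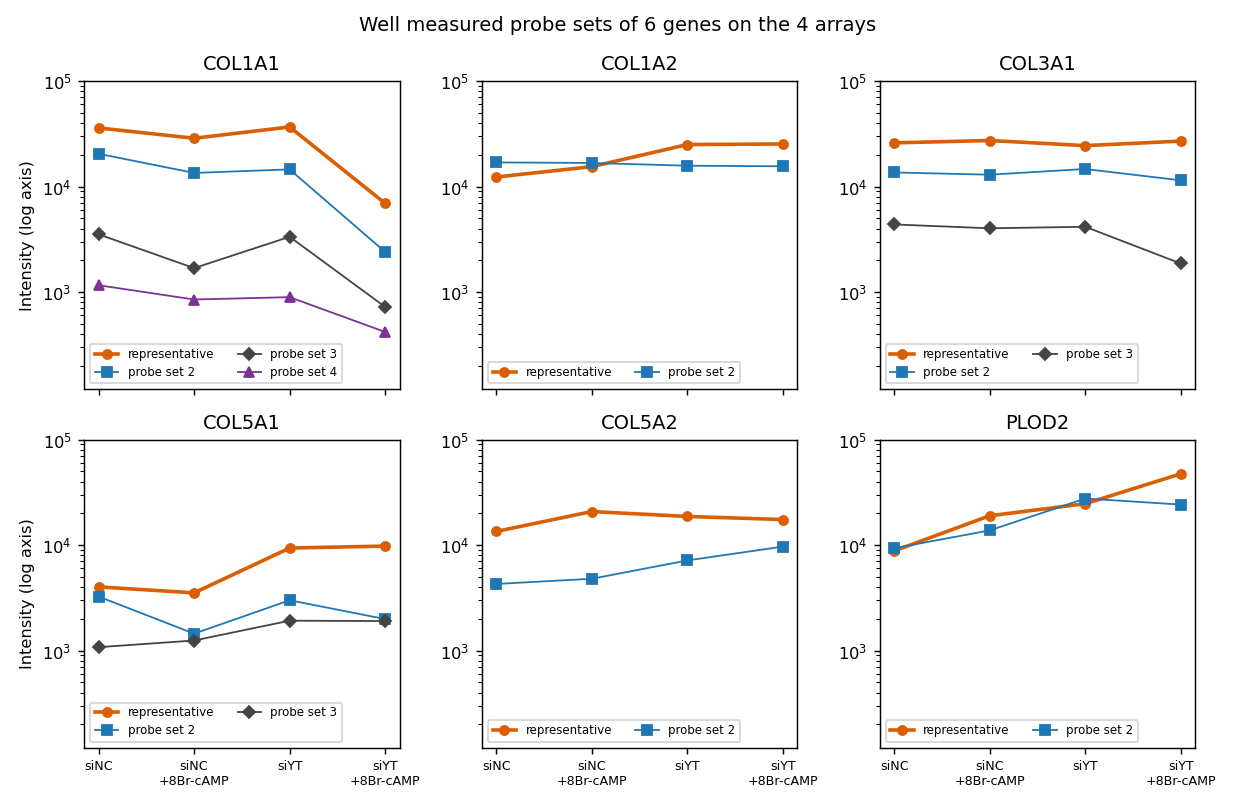
Intensity (log axis) of the probe sets above 4 times the floor on every array, for the 6 genes whose probe sets disagreed by over 2-fold in a comparison, with the representative in bold orange. The COL1A1 lines all drop at siYT+8Br-cAMP, to 6926 on the representative, while COL1A2, COL5A1 and PLOD2 each have probe sets that part after knockdown.

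Of the 9 type IV and other network chains, 3 were 2-fold higher after knockdown without 8Br-cAMP (COL4A5, COL4A6 and COL10A1) and 2 with it (COL4A2 and COL4A3). Of the 7 above the floor on all arrays, 6 were above 0 without 8Br-cAMP, at a median of 0.42, and 7 with it, at a median of 0.58. COL4A1 read 37166, 46282, 43493 and 54460, a knockdown difference of 1.17-fold and 1.18-fold. A second COL4A1 probe set (8891, 15578, 13592 and 26137) gave 1.53-fold and 1.68-fold. COL4A2, which joins COL4A1 in the ubiquitous collagen IV, read 15406, 15131, 20630 and 43139, so that its siYT+8Br-cAMP value, on the array that stood apart, was above the other 3. The differences were 1.34-fold and 2.85-fold, and a second probe set gave 1.33-fold and 1.53-fold. COL4A5 and COL4A6, chains of more restricted basement membranes, were both higher on the knockdown arrays. COL4A5 read 2279 and 3413 on the control arrays and 4786 and 4886 on the knockdown arrays (2.10-fold and 1.43-fold). COL4A6 read 346, 889, 1486 and 1764, a knockdown difference of 4.30-fold and 1.98-fold, the latter just below the threshold. COL4A3 read 175, 101, 206 and 274, and COL4A4 901, 1009, 1210 and 1093, so with 8Br-cAMP the knockdown difference was 2.73-fold for COL4A3 and 1.08-fold for COL4A4. A dim second COL4A4 probe set (116, 62.1, 120 and 137) gave log2 1.13 there, a lower bound. The other COL4A3 probe sets read 67.6 or less on every array, at or barely over the floor. COL8A1, of the short-chain network collagens, read 13884, 9837, 9098 and 14737, with log2 knockdown differences of -0.61 and 0.58, and a second probe set gave -0.51 and 0.07.

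The type IV genes lie in head-to-head pairs that share the DNA between their starts. These spacers were 126 bases for COL4A1 and COL4A2 on chromosome 13, 135 bases for COL4A4 and COL4A3 on chromosome 2 and 379 bases for COL4A6 and COL4A5 on chromosome X (GRCh38.p14). The sequences between the first pair, and the 250 bases next to COL4A5 between the last pair, are shown because the values of paired genes can be set against them. Both are written on the strand of the second gene, with the same 4 motifs in capitals.
COL4A1 and COL4A2 (chr13:110307158-110307283, plus strand): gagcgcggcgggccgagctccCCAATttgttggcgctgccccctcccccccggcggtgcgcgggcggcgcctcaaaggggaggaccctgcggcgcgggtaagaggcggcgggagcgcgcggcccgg
COL4A6 and COL4A5 (chrX:108439588-108439837, plus strand): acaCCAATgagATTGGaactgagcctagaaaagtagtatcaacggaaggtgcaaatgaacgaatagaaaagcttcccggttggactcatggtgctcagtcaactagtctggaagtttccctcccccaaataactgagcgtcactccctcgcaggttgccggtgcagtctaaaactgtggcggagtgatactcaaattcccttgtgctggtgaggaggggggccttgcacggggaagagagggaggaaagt
The first held CCAAT at 1 place and the second at 2, on opposite strands, and neither held any of the other 3 motifs. Within the pairs the knockdown differences without 8Br-cAMP were 0.23 and 0.42 for COL4A1 and COL4A2, 0.23 and 0.42 for COL4A3 and COL4A4, and 1.07 and 2.10 for COL4A5 and COL4A6. With 8Br-cAMP they were 0.23 and 1.51, 1.45 and 0.12, and 0.52 and 0.99. On their representatives the members of a pair therefore had the same sign in every knockdown comparison but differed in size by 0.19 to 1.33 on the log2 scale. The second probe sets of COL4A1 and COL4A2 gave 0.61 and 0.41 without 8Br-cAMP, and 0.75 and 0.61 with it. The gap within this pair thus depends on the probe set. All these values were above 0, as were those of 27 of the 35 members above the floor on all arrays in each comparison. The shared sign is thus not particular to the pairs.

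Collagens VI and VII were higher on their representative probe sets. All 4 chains above the floor (COL6A1, COL6A2, COL6A3 and COL7A1) were higher in both comparisons, with median log2 differences of 1.05 and 0.79, although none passed 2-fold in both. By any amount, 65.7% of the 35 members above the floor on all arrays were higher in both, and 33.7% of all such genes. The shared sign is thus not particular to these chains. COL6A3, the largest chain of the beaded microfibrils, read 328, 292, 1170 and 469, so siYT was the highest by far and siYT+8Br-cAMP lay between. That is 3.56-fold higher without and 1.61-fold with 8Br-cAMP. COL6A1 read 4208, 4761, 8110 and 5607 (1.93-fold and 1.18-fold), and COL6A2 read 1256, 1571, 2394 and 2923 (1.91-fold and 1.86-fold). Second probe sets gave 2.30-fold and 1.57-fold for COL6A1, and 1.26-fold and 1.14-fold for COL6A2. Dimmer COL6A1 probe sets disagreed. One went the other way (188, 157, 184 and 25.1), at log2 -0.03 and -1.33, with siYT+8Br-cAMP below the floor. Others gave 0.28 and 0.68, and 0.84 and 1.90. COL7A1, which anchors epithelia to stroma, read 262, 251, 587 and 464, with both knockdown arrays above both control arrays (2.24-fold and 1.85-fold). A dimmer COL7A1 probe set did not show this (150, 186, 146 and 151), at log2 -0.04 and -0.30.

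FACIT collagens, which decorate fibrils, and the remaining chains were mixed. COL12A1 read 5583, 7341, 11564 and 11812, which is 2.07-fold and 1.61-fold higher, while 2 further probe sets gave 1.10-fold and 1.55-fold higher without 8Br-cAMP. With 8Br-cAMP the first of these was 1.18-fold lower and the second 1.40-fold higher. COL21A1 read 188, 163, 554 and 180, so that only siYT was high (2.95-fold and 1.11-fold). COL9A3 read 406, 530, 165 and 571, with siYT the low array (2.46-fold lower without 8Br-cAMP), and COL9A2 read 229, 333, 228 and 125, with siYT+8Br-cAMP the low one (2.67-fold lower with it). Under a floor at the 75th percentile, 389, the siYT difference without 8Br-cAMP was log2 0.51 for COL21A1 and -0.06 for COL9A3. COL10A1, COL13A1 and COL14A1 were high in siYT, at 213, 241 and 250, and at 107 or less on the other arrays. Without 8Br-cAMP COL10A1 was at least 3.41-fold higher, COL13A1 2.26-fold and COL14A1 3.89-fold. A second probe set was also highest in siYT for COL10A1 (8.68, 24.6, 196 and 88.3) and COL14A1 (13.9, 3.94, 169 and 115). The dim further probe sets of COL13A1 disagreed. The first was highest in siYT by little (67.5, 92.4, 96.8 and 25.3), and the other was highest in siYT+8Br-cAMP (66.2, 25.7, 15.4 and 99.0). COL18A1, the source of endostatin, was 1.57-fold and 1.31-fold higher.

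Of the 5 lysyl oxidases, none passed 2-fold in either knockdown comparison, where 3 of the 6 hydroxylases passed it in both. Over all genes 7.40% and 6.88% were 2-fold higher in the 2 comparisons, and 2.45% were higher in both. Lower were 6.16% and 9.66%, so a class of 5 with none past 2-fold is near these shares. LOX differed by log2 -0.34 and 0.13, LOXL2 by -0.34 and 0.45, and LOXL4 by 0.21 and 0.21. LOXL1, which also serves elastic fibres, read 19096, 12604, 30837 and 13528, or 1.61-fold and 1.07-fold higher after knockdown. LOXL3 was near the floor on all arrays. The difference between the 2 enzyme classes was not tested.

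Other genes of collagen synthesis, processing and binding came from a list of 43, of which 38 were above the floor on at least 1 array. After knockdown 11 of the 38 were 2-fold higher and 0 lower in the first comparison, where all genes gave 7.40% and 6.16%, and 4 and 0 in the second, where all genes gave 6.88% and 9.66%. The 2 of the 38 that were higher in both were the small proteoglycans that bind collagen fibrils, LUM (276, 434, 3355 and 3698) and DCN (165, 279, 1068 and 876). No gene of the list was lower in both, and all genes gave 2.45% higher and 2.87% lower in both. LUM was 12.1-fold and 8.51-fold higher and DCN 6.46-fold and 3.14-fold. DCN also stands among the stromal markers. The log2 medians of the list members above the floor on all arrays were 0.54 and 0.37, beside 0.03 and -0.03 over all such genes.

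Arrays with and without 8Br-cAMP were compared under control siRNA and again after knockdown. P4HA3, a prolyl 4-hydroxylase subunit of restricted expression, was the 1 member that was 2-fold higher in both, and none was 2-fold lower in both, where all genes gave 1.48% and 2.11%, and those above the floor on all arrays 1.60% and 2.41%. P4HA3 was 2.78-fold higher with control siRNA (440 to 1222) and 2.32-fold higher after knockdown (732 to 1702), so both 8Br-cAMP arrays lay above both others. Its other probe set was below the floor on every array. PLOD2 was 2.15-fold and 1.92-fold higher, and by its second probe set 1.47-fold higher and 1.14-fold lower. With control siRNA, 4 members were 2-fold higher (COL4A6, COL15A1, P4HA3 and PLOD2) and 0 lower, where all genes gave 4.37% and 5.26%; of those above the floor on all arrays the counts were 3 and 0, against 4.47% and 5.50%. After knockdown, 3 were higher (COL4A2, COL9A3 and P4HA3) and 8 lower, where all genes gave 5.10% and 10.0%; on all arrays the counts were 3 and 5, against 5.09% and 11.1%.

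**Figure D4:**
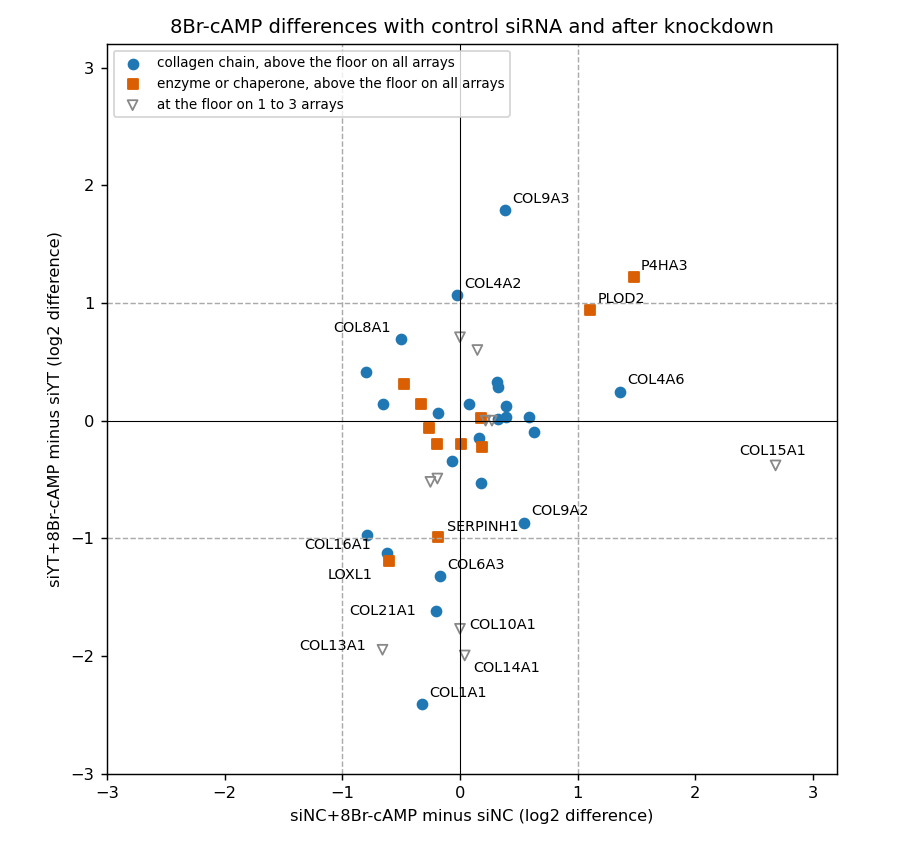
Log2 difference with 8Br-cAMP in cells with control siRNA (horizontal) and after YAP/TAZ knockdown (vertical) for the 45 members above the floor on at least 1 array, with dashed lines at 2-fold and open triangles for members at the floor on 1 to 3 arrays. P4HA3 is past 2-fold on both axes, and COL1A1 is the lowest on the vertical axis at -2.41.

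The 8 members lower with 8Br-cAMP after knockdown were COL1A1, COL6A3, COL10A1, COL13A1, COL14A1, COL16A1, COL21A1 and LOXL1. COL6A3 was 2.50-fold lower, LOXL1 2.28-fold and COL21A1 3.07-fold lower. COL16A1, a FACIT chain, read 152, 98.9, 182 and 83.9, with both 8Br-cAMP arrays low. COL27A1, a fibrillar chain, was 1.73-fold and 1.97-fold lower (278, 161, 283 and 144). Another COL27A1 probe set went the other way (109, 172, 69.1 and 109), 1.58-fold and 1.57-fold higher with 8Br-cAMP. SERPINH1 was 1.14-fold and 1.98-fold lower. Over the 35 members above the floor on all arrays the median log2 difference was 0.01 with control siRNA and 0.02 after knockdown, and 12 (34.3%) were higher in both and 10 (28.6%) lower in both, near the 31.4% and 34.2% of all such genes.

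The difference between the knockdown differences with and without 8Br-cAMP passed 2-fold for 13 of the 45 members, 4 upward and 9 downward, where all genes gave 5.47% and 9.71%. This value uses all 4 arrays, 1 of which stood apart, and it was not tested. COL10A1, COL13A1, COL14A1 and COL15A1, all downward, were at the floor on 1 to 3 arrays. Of the 35 members above the floor on all arrays, 4 were upward and 5 downward, and the share over all such genes was not computed. Among members above the floor on all arrays the highest were COL9A3 (1.41), COL4A3 (1.22) and COL8A1 (1.19), and the lowest were COL1A1 (-2.08), COL9A2 (-1.41) and COL21A1 (-1.41). PLOD1 (0.19), PLOD2 (-0.16), P4HA1 (-0.15) and COL5A1 (0.25) had small values on their representatives, which the choice of genes past 2-fold in both comparisons favours. Other well measured probe sets gave -0.75 for PLOD2 and, for COL5A1, 0.58 and -0.22.

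An additive fit in limma, with knockdown and 8Br-cAMP as factors over 14361 genes and 1 residual degree of freedom, takes that difference as error. At a Benjamini-Hochberg level of 0.05 it called 0.251% of all genes higher and 0.634% lower after knockdown, and 0 members. At an unadjusted p under 0.05, 13 members were higher and 1 was lower after knockdown, where all genes gave 9.85% and 9.98%. The smallest adjusted p of a member in this limma fit was 0.069, for PLOD1, at a fitted log2 difference of 1.51. It was 0.080 for PLOD2 and 0.088 for COL5A1. For 8Br-cAMP the limma fit called 0.0905% of genes higher, 0.0279% lower and 0 members, with 3 members higher and 5 lower at an unadjusted p under 0.05, where all genes gave 6.23% and 9.32%. The smallest adjusted p of a member for 8Br-cAMP in this limma fit was 0.141, for P4HA3.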

How the data were processed

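Total RNA was amplified and biotin-labelled with a 3' in vitro transcription kit and hybridised to 1 array per group, per the labels' protocols. The authors deposited linear intensity values, made by RMA in Affymetrix Expression Console per the submitters' processing notes, without versions. The values go against RMA output, which is logarithmic: they are linear, differ in distribution between arrays and have a 2% trimmed mean of 500.1 on each. Their background correction and summary stay unknown.

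The platform annotation gave 41097 of 54675 probe sets a single symbol, 1801 several and 11777 none; those with 1 were used. Gene identifiers matched 41043 to RefSeq and changed 0 symbols. Values under the floor of 62.6 (log2 5.97) were raised to it and log2 differences taken, with no further normalization. A fold against a floored array is a lower bound. With 4 arrays, their number limits the precision. Python 3.11.15 and limma 3.58.1 in R 4.3.3 were used, and the 2-fold rule and the fit were tested on simulated data. Members and lists were chosen with earlier results of these data known. Named were members 2-fold the same way in both comparisons of a factor, the 8 with the highest mean intensity, the 3 highest and 3 lowest by difference of differences, and those whose probe sets disagreed by over 2-fold. Others are given within their class, and those named singly there, with P4HB, were chosen after their values were seen. Alternatives were no floor with no filter, a floor at the 75th percentile (388.7), the mean of all probe sets, no shared probe sets (suffix _s, _x or _a), cyclic loess and the additive fit. Added after seeing the data were the exclusion of the siYT+8Br-cAMP array and a representative chosen by mean log2.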

Additional observations from a re-analysis of the deposited data

Results flagged for a closer look

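COL15A1, a basement membrane zone collagen, was the 1 member whose knockdown differences passed 2-fold in opposite directions without and with 8Br-cAMP, and this difference was not tested. Its intensities were 55.6 and 402 under control siRNA and 223 and 171 after knockdown, without and with 8Br-cAMP. The log2 difference was at least 1.83 without 8Br-cAMP, because siNC lay below the floor, and -1.23 with it. With control siRNA, 8Br-cAMP gave a value at least 6.41-fold higher. One probe set read this gene, and each group held 1 array.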

How the results depend on the processing

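No paired analysis was possible because each group held 1 array. The 4 members that were 2-fold higher in both knockdown comparisons were the same genes without floor and filter, with the 75th percentile floor and with the representative by mean log2. These 4 genes read above both floors on every array, so the floor settings could not change their values. The representative by mean log2 also left their values unchanged. Those 3 settings show only that no other member entered. Cyclic loess gave 4, of which 3 were shared (P4HA1 left and COL4A6 entered). The mean of all probe sets left 2, PLOD1 and PLOD2. Without shared probe sets there were 3, of which 2 were shared (COL5A1 and PLOD1, with COL1A2 entering). That setting removed every PLOD2 probe set and kept for P4HA1 only a probe set below the floor on every array. Neither gene could therefore pass there. The additive limma fit called 0 members higher after knockdown and 0 with 8Br-cAMP. Without the siYT+8Br-cAMP array 1 comparison of each factor remained, in which knockdown gave 15 members higher and 1 lower and 8Br-cAMP gave 4 higher.

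Shares over all genes were not computed under the settings that follow, so these counts have no background beside them. The count of members 2-fold higher with 8Br-cAMP in both was 0 with the mean of all probe sets. That setting also gave 8 higher after knockdown without 8Br-cAMP and 3 with it, 2 higher with 8Br-cAMP and control siRNA, 1 after knockdown, and 6 for the difference of differences. Without a floor and without the filter on low genes, which also let in the 10 members below the floor, the counts were 5 lower after knockdown without 8Br-cAMP, 11 higher and 6 lower with it, 9 higher and 3 lower with 8Br-cAMP and control siRNA, 8 higher and 13 lower after knockdown, and 24 for the difference of differences. The members lower in both were then 1 for knockdown (COL25A1) and 2 for 8Br-cAMP (COL6A6 and COL9A1), all at or near the floor. With the 75th percentile floor, knockdown without 8Br-cAMP gave 9 higher and 0 lower, 1 lower with it, 3 lower with 8Br-cAMP after knockdown, and 4 by difference of differences. Without shared probe sets these were 0 lower after knockdown without 8Br-cAMP, 4 lower with 8Br-cAMP after knockdown, and 8. No probe set of COL1A1, COL9A3, COL10A1, COL13A1 or COL21A1 was left in that setting, so these members dropped out by construction. For P4HA1, P4HA3, COL4A3 and COL9A2 the mean of all probe sets is lower by construction, since their other probe sets lay at or barely over the floor and add differences of or near 0. Probe sets below the floor on every array also add differences of 0 to the means of other members, COL1A1 and COL14A1 among them. With the 75th percentile floor COL4A3, COL9A2, COL10A1, COL13A1, COL14A1 and COL16A1 could not be called, since they read below it on every array. The cause of the remaining shifts was not tested. Among the single values of named members, 379 moved by less than the probe set SD and 21 moved further, and no value past 2-fold changed sign. Many of the 379 could not move. All named members were above the floor on every array, so leaving it out changed none of their values. The representative by mean log2 changed none either, and the mean of all probe sets cannot change a gene with 1 probe set. The 379 are thus no measure of stability. Values past 2-fold that were under it elsewhere were those of COL9A3 and COL21A1 with the 75th percentile floor, of COL4A2, P4HA1 and PLOD2 with cyclic loess, and of COL1A2, COL4A2, COL4A3, COL5A1, COL9A2, P4HA1, P4HA3 and PLOD2 with the mean of all probe sets, each in at least 1 comparison. Without shared probe sets COL3A1 differed by -1.88 after knockdown with 8Br-cAMP, where the reported value was -0.02.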
